A study of Rattus norvegicus with 12 samples.

Results

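The heart draws most of its energy from fatty acids, and the 38 genes described here carry these fatty acids from the blood to their breakdown or into triglyceride stores. They were chosen by symbol from the 34322 genes of the deposited count tables, as named enzymes and carriers of fatty acid oxidation and of lipid stores. All 38 were found, and all 38 passed the filter on low counts in each comparison. RNA came from hearts of wild-type male rats of the SD strain, given as 180 to 200 g at the start of dosing. The tested animals received 50 mg per kg of sorafenib, an oral inhibitor of RAF and of receptor tyrosine kinases used against cancer, each day for 14 or 28 days. Animals of the same strain, sex and genotype received an equal volume of deionized water for the same times. The groups were sorafenib for 14 days, water for 14 days, sorafenib for 28 days and water for 28 days, with 3 libraries in each. The labels give no ages and do not state that each library came from its own animal, and p-values therefore describe variation among the libraries at hand, which could be technical.

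Fatty acids are freed from lipoproteins in the capillary by lipoprotein lipase, taken up by carriers such as CD36 and bound in the cytosol by the fatty acid binding protein FABP3. Acyl-CoA synthetases activate them, the carnitine shuttle passes them into mitochondria, and malonyl-CoA, made by acetyl-CoA carboxylases and removed by malonyl-CoA decarboxylase, blocks that shuttle. Inside, each turn of beta oxidation takes a dehydrogenase, a hydratase, a second dehydrogenase and a thiolase, and electrons leave through the electron transfer flavoprotein. Surplus fatty acids are esterified by DGAT enzymes and released again by lipases of the PNPLA family and by hormone-sensitive lipase.

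Libraries held 13746366 to 18534816 counts at day 14. At day 28, 5 libraries held 16785038 to 26403196 counts, and sorafenib replicate 3 held 1036483, where 1 count equals 0.965 CPM (counts scaled to a common library size). The 38 genes took 1.211% to 1.804% of a library's counts. CPM values below were normalised by TMM over all 12 libraries. All 10 cardiomyocyte markers were present, with Myh6, the main myosin heavy chain of the adult rat ventricle, at 16300 to 33400 CPM in sorafenib libraries and 17600 to 36600 CPM in water libraries. Of 7 fat cell markers found, Adipoq (adiponectin), Plin1 and Retn reached at most 7 counts in a library, Cidec and Lep at most 18, and Cfd and Pck1 at most 136. Cfd was above 0 in all 12 libraries, while Adipoq was at 0 in 8, Retn in 8, Cidec in 9, Plin1 in 5, Pck1 in 3 and Lep in 1.

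The gene with the clearest difference was Pnpla3, which encodes a triglyceride lipase-like protein of lipid droplets whose level in liver is known to follow feeding. It lies at chr7:115293538-115314077 on the plus strand of mRatBN7.2, the assembly of the count tables. The region around its start is shown because it is the one gene of the set that passed the test between sorafenib and water. This window of 250 bases before to 50 bases after the start is RefSeq's for the later assembly GRCr8 (chr7:117173278-117173577, plus strand), with GGGCGG (a GC box) and CCAAT, which reads ATTGG on the other strand, in capitals.
Pnpla3: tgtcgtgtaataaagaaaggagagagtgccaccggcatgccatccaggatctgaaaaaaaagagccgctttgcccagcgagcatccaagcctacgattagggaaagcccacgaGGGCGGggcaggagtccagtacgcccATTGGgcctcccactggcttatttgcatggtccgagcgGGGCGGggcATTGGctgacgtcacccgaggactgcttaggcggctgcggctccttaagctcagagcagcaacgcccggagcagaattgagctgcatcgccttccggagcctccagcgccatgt
It held 2 copies of GGGCGG, at 137 and 73 bases before the start, and 2 of CCAAT on the opposite strand, at 111 and 64 bases before it. Matches of this kind are descriptions of the letters and not binding sites.

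Pnpla3 stood at 1.98, 4.31 and 2.24 CPM in sorafenib hearts of day 14, against 9.23, 20.1 and 34.1 CPM in water hearts of day 14. At day 28 it stood at 13.2, 10.9 and 7.18 CPM in sorafenib hearts, against 15.0, 22.7 and 19.5 CPM in water hearts. Every sorafenib library lay below every water library of its day, at both days, and water libraries of day 14 spread widely. In counts, the sorafenib libraries of day 14 held 33, 75 and 37, against 177, 396 and 628 in the water libraries. At day 28 the shallow sorafenib replicate 3 held 13 counts, so its value carries a large counting error.

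Averaged over both days with equal weight, Pnpla3 fell by 1.89 on the log2 scale, a ratio of 0.271 (SE 0.299, edgeR quasi-likelihood adjusted p 0.00979 over 18174 genes). It was the 1 of the 38 genes that passed this test (adjusted p below 0.05), beside 4.41% of all genes tested (2.41% lower). At an unadjusted p below 0.05, 5 of the 38 were called, 3 higher and 2 lower, beside 24.3% of all genes. The call held in 19 of 19 alternatives, with adjusted p of at most 0.0411 and log2 fold changes of -2.35 to -1.61. Within day 14 the log2 fold change was -2.89 (SE 0.493) with an edgeR adjusted p of 0.107, and within day 28 it was -0.84 (SE 0.281) with an adjusted p of 0.252. The difference between these effects, day 28 minus day 14, was 2.01 (SE 0.588, unadjusted p 0.0041), and it did not pass adjustment (edgeR adjusted p 0.999). At day 14 the call depended on the method: DESeq2 gave an adjusted p of 3.09e-08, the fit of all 12 libraries 0.0403, and edgeR without water replicate 2 gave 0.0157.

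Macrophage markers differed in the same direction as Pnpla3, as did most markers of other cell types. Over both days, log2 fold changes were below 0 for 6 of 6 macrophage markers (3 called) and 6 of 7 endothelial markers (3 called). They were also below 0 for 5 of 6 fibroblast markers (1 called) and 9 of 10 cardiomyocyte markers (0 called), where 2.41% of all genes were called lower. All 6 macrophage markers had log2 fold changes below 0 at each day, and none of them was at 0 counts in a library. Their summed level was 85.7, 36.0 and 55.2 CPM in sorafenib hearts of day 14, against 152, 96.1 and 83.8 CPM in water hearts. At day 28 it was 42.8, 114 and 66.5 CPM in sorafenib hearts, against 102, 110.1 and 172 CPM in water hearts. The macrophage sums thus overlapped between the groups at both days. The 7 fat cell markers found, of 8 listed, summed to 1.27 to 2.82 CPM in sorafenib hearts of day 14, against 2.605 to 4.38 CPM in water hearts, and to 3.92 to 9.64 CPM in sorafenib hearts of day 28, against 6.83 to 13.3 CPM in water hearts. These ranges overlapped at both days. Of the 3 fat cell markers tested over both days (Lep, Cfd and Pck1), 3 had log2 fold changes below 0 and none passed, and at day 28 Cfd was at 0.04. The part of these cells in the Pnpla3 result was not tested. In bulk heart RNA, fewer cells of a type and less RNA per cell cannot be told apart, here and in each result that follows.

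**Figure D1:**
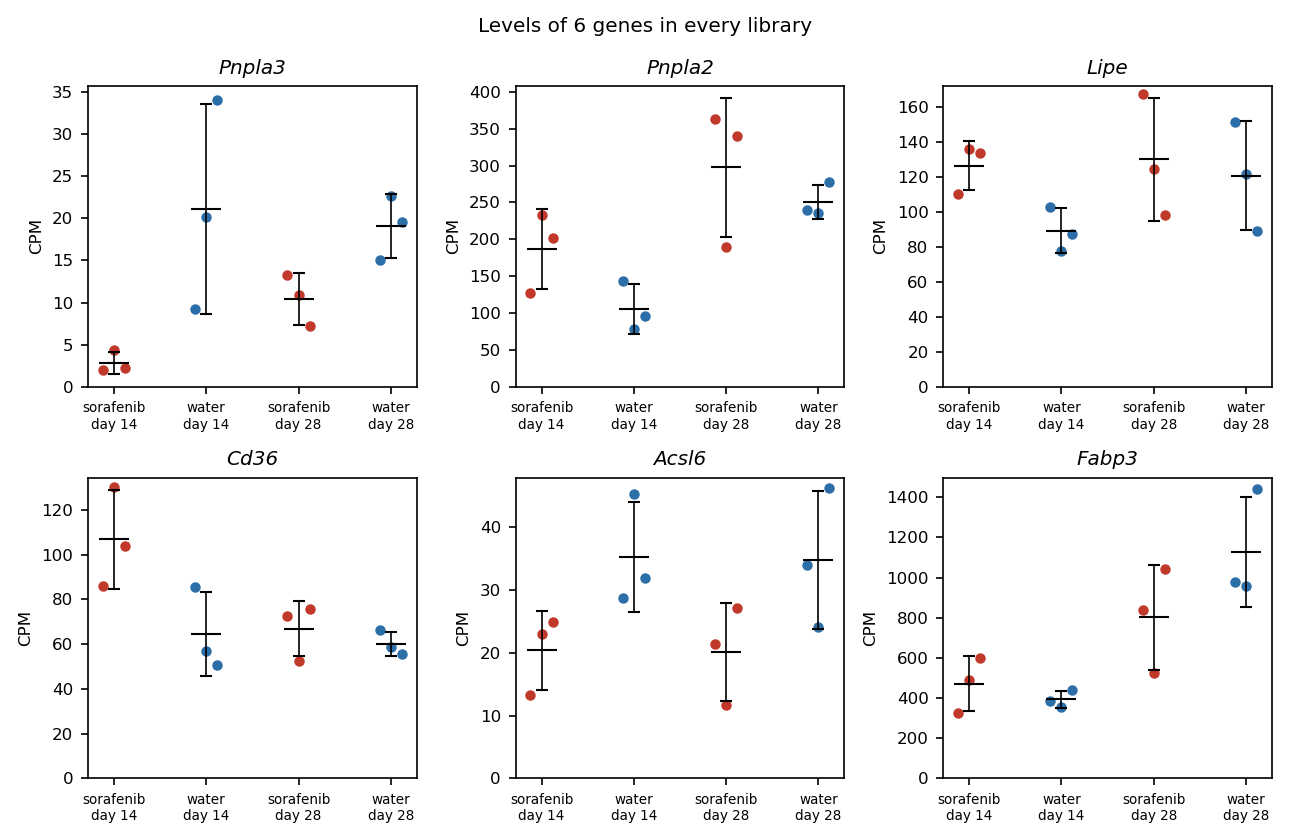
Levels of 6 genes in every library, in CPM on axes that start at 0, with sorafenib in red and water in blue. Points are libraries, and black lines are the mean ± SD of 3 libraries. Pnpla3 lies lower in every sorafenib library than in any water library of its day, and Fabp3 and Pnpla2 lie higher in water hearts of day 28 than of day 14.

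The other genes of triglyceride stores did not pass the test of sorafenib against water. Pnpla2, which encodes adipose triglyceride lipase, the enzyme that starts the breakdown of stored triglyceride, stood at 128, 233 and 202 CPM in sorafenib hearts of day 14, against 143, 77.9 and 96.4 CPM in water hearts. The values of day 28 were 363, 189.8 and 340.1 CPM in sorafenib hearts, against 239, 235 and 278 CPM in water hearts. The groups overlapped at both days, and the average log2 fold change was 0.54 (SE 0.195, edgeR adjusted p 0.112). Without the shallow sorafenib replicate 3 of day 28 that adjusted p was 0.0497, and with DESeq2 on all libraries it was 0.0443. Pnpla2 and Pnpla3, which are close relatives in the patatin-like family, thus had average log2 fold changes of opposite sign.

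Lipe, which encodes hormone-sensitive lipase, stood at 110.4, 136 and 134 CPM in sorafenib hearts of day 14, against 103, 77.5 and 87.4 CPM in water hearts, so that these groups did not overlap. After 28 days it measured 168, 125 and 98.3 CPM in sorafenib hearts, against 152, 122 and 89.2 CPM in water hearts, which overlapped. Its log2 fold change was 0.51 (SE 0.147) at day 14, with an edgeR adjusted p of 0.197. Dgat1 and Dgat2 encode the enzymes that make triglyceride from diacylglycerol. Dgat1 stood at 32.2, 50.2 and 35.6 CPM in sorafenib hearts of day 14, against 38.9, 40.7 and 39.7 CPM in water hearts, and at 38.4, 49.3 and 46.0 CPM in sorafenib hearts of day 28, against 51.2, 38.6 and 54.6 CPM in water hearts. Dgat2 stood at 18.01, 44.3 and 41.3 CPM in sorafenib hearts of day 14, against 31.5, 19.0 and 27.7 CPM in water hearts. Values at day 28 were 36.6, 7.53 and 44.7 CPM in sorafenib hearts, where the middle value rests on 9 counts, against 30.9, 25.2 and 33.0 CPM in water hearts. Both genes overlapped between the groups at each day.

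Among the genes of uptake, Cd36, the membrane carrier of long-chain fatty acids, did not pass the edgeR test at either day. At day 14 it stood at 86.2, 130.3 and 104 CPM in sorafenib hearts, against 85.7, 57.1 and 50.6 CPM in water hearts. The lowest sorafenib library lay just above the highest water library. At day 28 Cd36 stood at 72.7, 52.7 and 75.6 CPM in sorafenib hearts, against 66.2, 58.8 and 55.4 CPM in water hearts, and the groups overlapped. The log2 fold change was 0.73 (SE 0.214, edgeR adjusted p 0.201) at day 14 and 0.46 (SE 0.147, adjusted p 0.0834) over both days. It passed over both days with DESeq2 (adjusted p 0.034) and with edgeR without water replicate 2 of day 14 (0.0363).

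Lpl encodes lipoprotein lipase and had the highest level per length of the set in water hearts, with a median of 917 CPM per kb of exon. It stood at 1861, 2841 and 3026 CPM in sorafenib hearts of day 14, against 2752, 2229 and 2769 CPM in water hearts. At day 28 it stood at 2377, 1804 and 3366 CPM in sorafenib hearts, against 2789, 3151 and 3920.0 CPM in water hearts. The groups overlapped at both days, and the average log2 fold change was -0.19 (SE 0.189, edgeR adjusted p 0.55). Fabp3 stood at 326, 489.7 and 601 CPM in sorafenib hearts of day 14, against 385, 355 and 440.5 CPM in water hearts, and at 838, 526 and 1043 CPM in sorafenib hearts of day 28, against 979, 957 and 1443 CPM in water hearts. Its sorafenib and water libraries overlapped at both days. Slc27a1, which encodes the fatty acid transport protein FATP1, had log2 fold changes above 0 at both days (average 0.25, SE 0.196, edgeR adjusted p 0.441).

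The acyl-CoA synthetases, which attach coenzyme A to the fatty acid, had log2 fold changes below 0 in 5 of 5 genes at day 14, with a median of -0.34, and in 4 of 5 at day 28, with a median of -0.11 and Acsl4 at 0.31. None passed the test at either day. The largest was that of Acsl6, at 13.3, 22.9 and 24.96 CPM in sorafenib hearts of day 14, against 28.8, 45.3 and 31.9 CPM in water hearts. At day 28 Acsl6 stood at 21.4, 11.7 and 27.2 CPM in sorafenib hearts, against 34.0, 24.2 and 46.2 CPM in water hearts. The groups did not overlap at day 14, and at day 28 the highest sorafenib library lay above the lowest water library. Over both days its log2 fold change was -0.74 (SE 0.211, edgeR adjusted p 0.0596), with 0.0168 by DESeq2 and 0.0378 by edgeR without sorafenib replicate 4 of day 28. Of the exonic bases of Acsl6, 2.63% overlap the uncharacterised gene LOC120095099 on the other strand, which the counting did not keep apart and which held at most 14 counts in a library. Acsl1, the main form of heart muscle, was the most abundant synthetase, with a median of 182 CPM per kb in sorafenib hearts and 212 CPM per kb in water hearts, while the medians of the other 4 in water hearts were 3.33 to 7.8 CPM per kb.

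In the control of the shuttle by malonyl-CoA, Acacb, which encodes the carboxylase at the mitochondrial surface, stood at 784, 998 and 839 CPM in sorafenib hearts of day 14, against 716, 635 and 662 CPM in water hearts. These groups did not overlap. The values of day 28 were 1002, 808 and 1034 CPM in sorafenib hearts, against 789, 842 and 896 CPM in water hearts, which overlapped. Its average log2 fold change was 0.28 (SE 0.124) with an edgeR adjusted p of 0.191 and a DESeq2 adjusted p of 0.0227. Acaca, the cytosolic carboxylase of fatty acid synthesis, stood at 71.6, 78.9 and 77.1 CPM in sorafenib hearts of day 14, against 78.5, 72.1 and 64.9 CPM in water hearts. After 28 days it measured 75.7, 73.6 and 90.1 CPM in sorafenib hearts, against 70.7, 68.7 and 73.0 CPM in water hearts, and was the 1 gene of the 38 whose sorafenib libraries all lay above the water libraries at that day. Mlycd, which encodes malonyl-CoA decarboxylase, stood at 99.3, 204 and 160.1 CPM in sorafenib hearts of day 14, against 151, 116 and 111 CPM in water hearts, and at 196, 118 and 187 CPM in sorafenib hearts of day 28, against 167, 164 and 226 CPM in water hearts. It overlapped between the groups at both days.

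**Figure D2:**
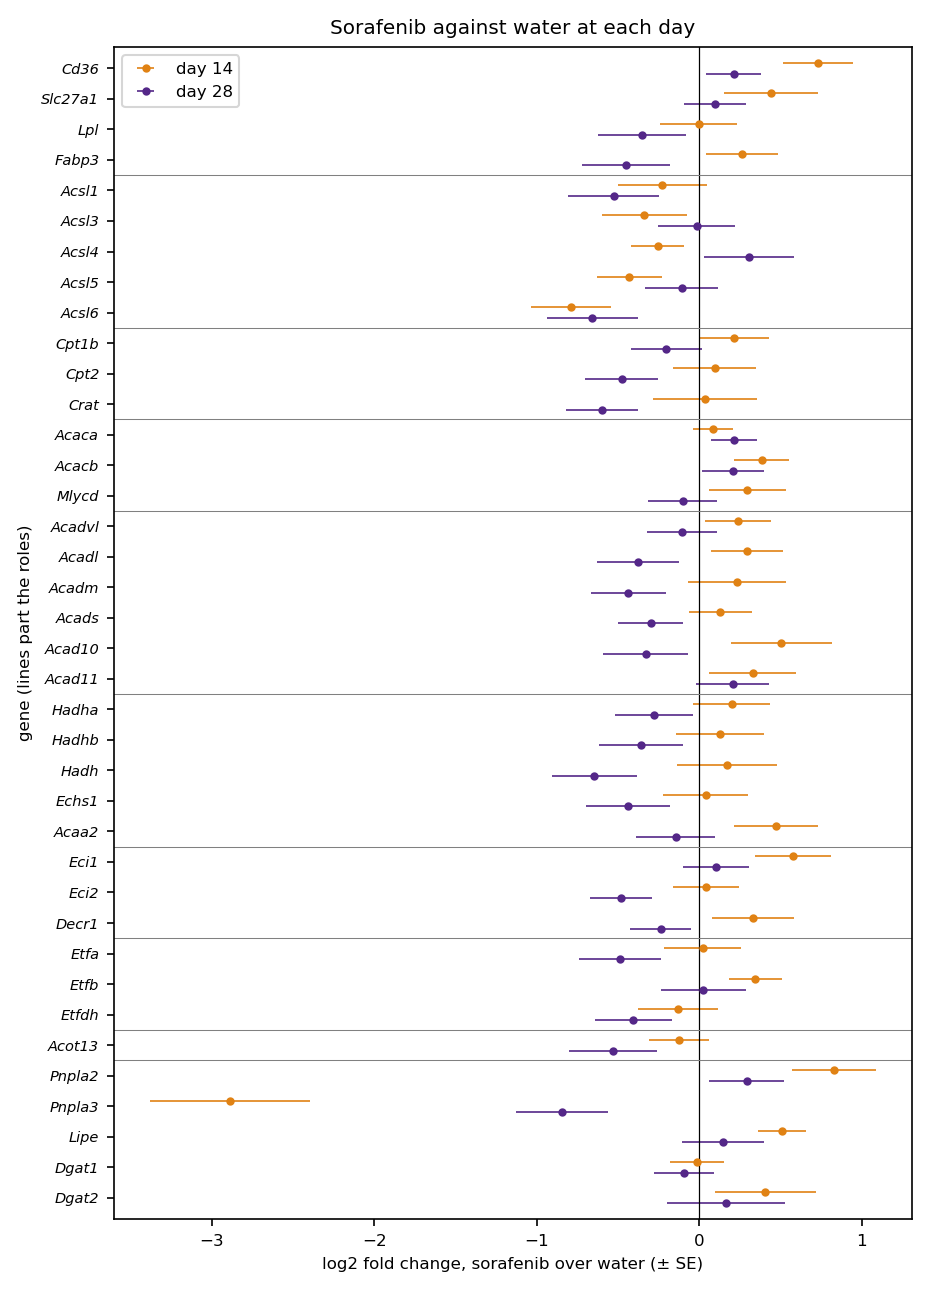
Log2 fold changes of sorafenib over water for the 38 genes, grouped by role, at day 14 (orange) and day 28 (purple), with bars of 1 SE from edgeR fits of 3 against 3 libraries. At day 14, 28 of 38 points lie above 0, and at day 28, 27 of 38 lie below 0, with Pnpla3 farthest to the left at both days.

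Within day 14, 0 of the 38 genes passed the edgeR test, as did 0% of the 17406 genes tested. At an unadjusted p below 0.05, 5 of the 38 were higher and 2 lower, where the shares over all genes were 7.09% and 6.93%. DESeq2 called 438 genes (2.98% of the genes to which it gave an adjusted p), with Pnpla3 the 1 among the 38. The median log2 fold change of the 38 was 0.19, beside 0.00103 for all genes tested, and 28 were above 0. That median was 0.41 without sorafenib replicate 5, 0.04 without sorafenib replicate 6, 0.07 without sorafenib replicate 7 and 0.11 without water replicate 3. Groups did not overlap for 4 genes that were higher in sorafenib hearts (Cd36, Acacb, Etfb and Lipe) and 2 that were lower (Acsl6 and Pnpla3), where the shares over all genes were 10.5% and 10.6%. With 3 libraries against 3, an exact permutation test of a single gene cannot go below a two-sided p of 0.1.

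Within day 28, 0 of the 38 genes passed, as did 0% of the 17021 genes tested. At an unadjusted p below 0.05 by edgeR, 5 of the 38 were called, beside 14.9% of all genes. None of them was higher and 5 were lower, where the shares over all genes were 7.04% and 7.83%. DESeq2 called 279 genes and none of the 38. The median log2 fold change was -0.26, beside -0.00258 for all genes tested, and 27 of the 38 were below 0. Without water replicate 4 that median was -0.09. All sorafenib libraries lay below all water libraries for Crat, Acads, Hadh, Eci2 and Pnpla3, or 5 of 38, where the share over all genes was 11.9%. With RLE scaling the libraries overlapped for Acads. Above them lay Acaca alone, where the share was 10.1%. At both days at once the sorafenib libraries were lower for 1 of the 38, Pnpla3, and higher for 0, where the shares over all genes were 3.36% and 2.44%.

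The 20 genes of mitochondrial oxidation proper, from the carnitine shuttle to the electron transfer flavoprotein, differed between libraries of 1 group. Their mean log2 level relative to the water hearts of the day was -0.41, 0.54 and 0.36 in sorafenib hearts of day 14, against 0.21, -0.16 and -0.05 in water hearts. At day 28 it was -0.24, -0.79 and -0.05 in sorafenib hearts, against -0.21, -0.13 and 0.34 in water hearts. The counts that follow describe single libraries, and the same shares over all genes were not computed. In sorafenib replicate 6 of day 14, 19 of the 20 genes lay above every water library of the day, and in replicate 7 of that group 16 did. In replicate 5 of the same group 14 of them lay below every water library, in sorafenib replicate 2 of day 28 12 did, and in replicate 3 of day 28, the shallow library, 20 of 20 did. These 3 libraries also held the most counts of Rn45s, the ribosomal RNA precursor, at 0.842%, 1.26% and 1.64% of their counts, against 0.0977% to 0.537% in the other 9. Water replicate 2 of day 28, at a mean log2 level of -0.21, held 0.38%. Sorafenib replicate 2 of day 28 also held 1.32% of its counts in mt-Rnr2, a mitochondrial ribosomal RNA, against 0.0244% to 0.205% in the other 11. The part of RNA quality in these levels was not tested.

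Contractile genes were low in some of the same libraries. The 10 cardiomyocyte markers were at -0.51, 0.11 and 0.23 in sorafenib hearts of day 14 on the same scale, against -0.17, 0.02 and 0.15 in water hearts, and at -0.25, -0.80 and 0.03 in sorafenib hearts of day 28, against -0.26, -0.02 and 0.28 in water hearts. Nuclear genes of oxidative phosphorylation, 18 in number, were at -0.50, 0.20 and 0.33 in sorafenib hearts of day 14, against -0.07, -0.06 and 0.13 in water hearts. At day 28 they were at -0.33, -0.89 and -0.05 in sorafenib hearts, against -0.29, -0.05 and 0.34 in water hearts. Sorafenib replicate 5 of day 14 and sorafenib replicate 3 of day 28 were the lowest libraries of their day for all 3 lists. In water hearts of day 14 the lists differed, since replicate 2 was the highest of the 3 for oxidation and the lowest for the cardiomyocyte markers. What part the share of heart muscle RNA has in the levels of the oxidation genes was not tested.

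**Figure D3:**
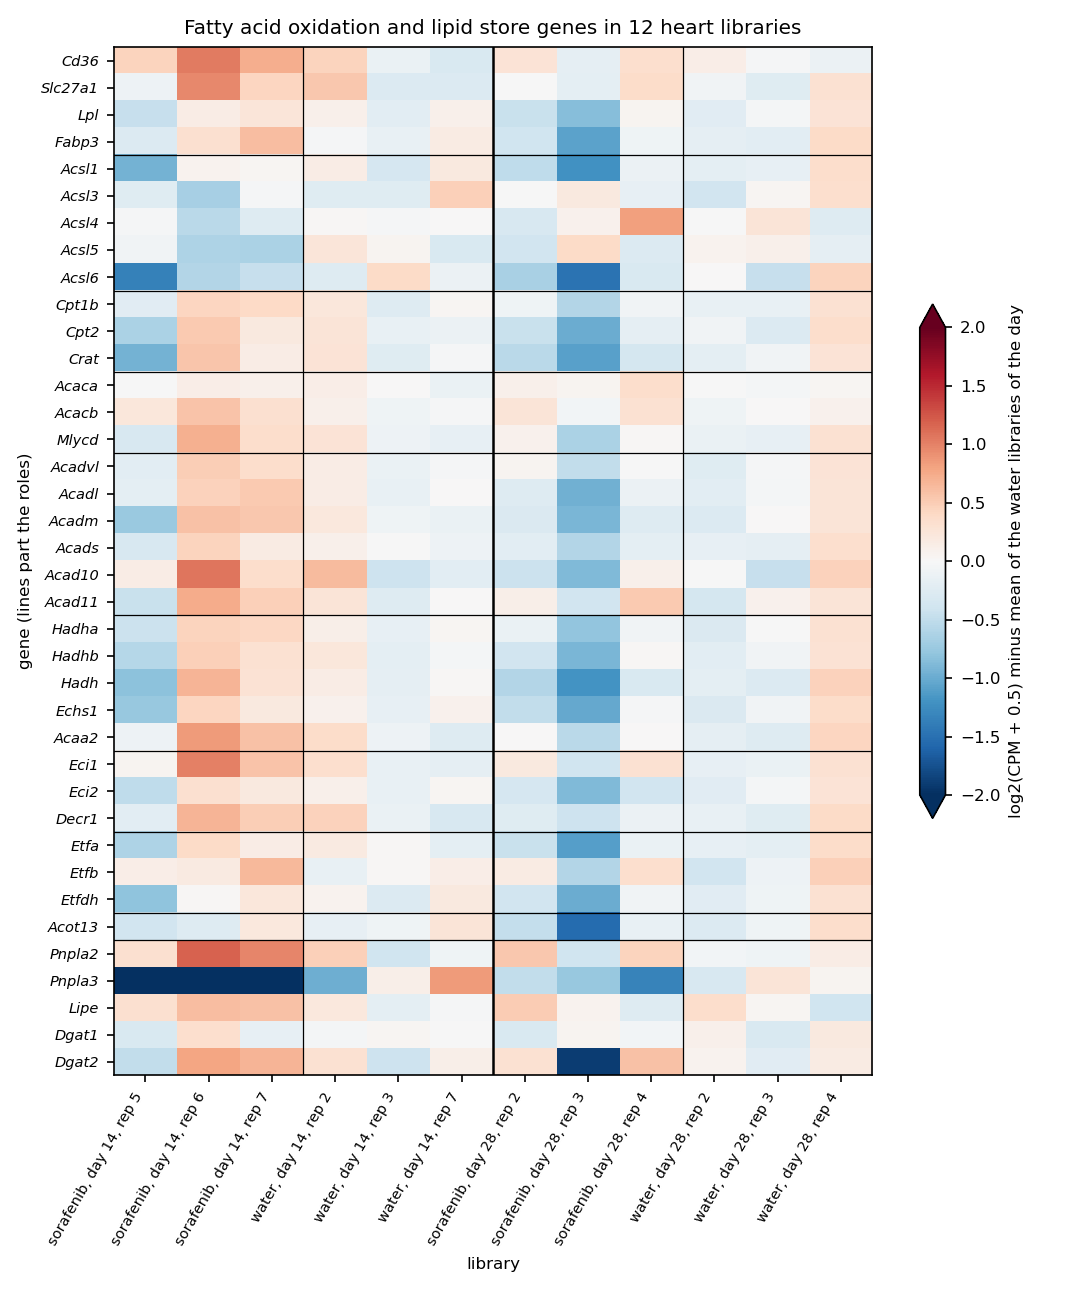
Levels of the 38 genes (rows, grouped by role) in the 12 libraries (columns), as log2(CPM + 0.5) with each day's water mean subtracted, red above and blue below that mean and the scale ending at -2 and 2. Sorafenib replicate 5 of day 14 and replicate 3 of day 28 are blue for most oxidation genes. Sorafenib replicates 6 and 7 of day 14 are red for most of them, and the row of Pnpla3 is blue in all 6 sorafenib libraries.

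Cpt1b, the muscle carnitine palmitoyltransferase that malonyl-CoA inhibits, shows this spread. It stood at 402, 632 and 619 CPM in sorafenib hearts of day 14, against 549, 391.5 and 484 CPM in water hearts, and at 689, 485 and 693 CPM in sorafenib hearts of day 28, against 655, 655 and 896 CPM in water hearts. Its average log2 fold change was -0.01 (SE 0.162, edgeR adjusted p 0.977). Crat, the carnitine acetyltransferase that buffers acetyl-CoA, stood at 163, 465 and 351 CPM in sorafenib hearts of day 14, against 381, 266 and 309 CPM in water hearts. Values at day 28 were 359, 245 and 405 CPM in sorafenib hearts, all below the 452, 494 and 627 CPM in water hearts. The log2 fold change at day 28 was -0.60 (SE 0.219), with an unadjusted p of 0.0208 and an edgeR adjusted p of 0.282. The average over both days was -0.30 (SE 0.217, adjusted p 0.413).

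The dehydrogenases of the first step gave 6 of 6 log2 fold changes above 0 at day 14 and 5 of 6 below 0 at day 28, and none passed at either day. Acadl, for long chains, stood at 936, 1477 and 1536 CPM in sorafenib hearts of day 14, against 1187, 961 and 1077 CPM in water hearts, and at 1308, 801 and 1438 CPM in sorafenib hearts of day 28, against 1341, 1513 and 1866 CPM in water hearts. Acadm, for medium chains, stood at 315, 788 and 764 CPM in sorafenib hearts of day 14, against 609.5, 499.5 and 482 CPM in water hearts, and at 709, 458 and 723 CPM in sorafenib hearts of day 28, against 716, 875 and 1042 CPM in water hearts. In both genes the groups overlapped at each day. The least abundant of the family were Acad10 and Acad11, with medians of 10.5 and 6.46 CPM per kb in water hearts, against 870 CPM per kb for Acadl.

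Of the later steps, Hadha, the alpha subunit of the trifunctional protein of long-chain oxidation, stood at 445, 816 and 799.6 CPM in sorafenib hearts of day 14, against 648, 533 and 616 CPM in water hearts. At day 28 it stood at 804, 511 and 843 CPM in sorafenib hearts, against 722, 878 and 1086 CPM in water hearts, and the groups overlapped at both days. Hadh, which acts on shorter chains, stood at 202, 573 and 434 CPM in sorafenib hearts of day 14, against 396, 314 and 361 CPM in water hearts. At day 28 all its sorafenib libraries, at 349.8, 228 and 423 CPM, were below the 459, 431 and 724 CPM in water hearts (log2 fold change -0.64, SE 0.263, edgeR adjusted p 0.306). Eci2, an isomerase for unsaturated chains, stood at 122, 216 and 198 CPM in sorafenib hearts of day 14, against 186, 157 and 178 CPM in water hearts. The values of day 28 were 171, 117 and 166 CPM in sorafenib hearts, against 184, 212 and 261 CPM in water hearts, without overlap (log2 fold change -0.48, SE 0.192, edgeR adjusted p 0.304). Eci1 had an unadjusted p below 0.05 at day 14, with a log2 fold change of 0.58 (SE 0.234, edgeR adjusted p 0.32).

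The effect of sorafenib did not pass a test of difference between the days for any of the 38 genes. The difference, day 28 minus day 14, was below 0 for 32 of 38, with a median of -0.44, beside -0.02 for all 18174 genes tested. By edgeR 0% of all genes and 0 of the 38 passed. At an unadjusted p below 0.05, 1 of the 38 was called, Pnpla3, where the share over all genes was 4.42%. DESeq2 called 9 genes and none of the 38. After Pnpla3 the smallest unadjusted p were those of Acadl (-0.70, SE 0.36) and Fabp3 (-0.75, SE 0.388), both with an edgeR adjusted p of 0.999. The difference was also below 0 for 18 of 18 genes of oxidative phosphorylation (median -0.43) and for 10 of 10 cardiomyocyte markers (median -0.26). Of all 18174 genes, 9476 were below 0. Leaving out a library moved the median of the 38 between -0.62, without sorafenib replicate 4 of day 28, and -0.28, without water replicate 4 of day 28.

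More of the 38 genes passed the test between the days in water hearts than between sorafenib and water. In water hearts, day 28 against day 14, 6 of the 38 genes rose and 0 fell, beside 9.55% of the 17210 genes tested that were called (6.92% higher, 2.63% lower). Age, time under study, the separate count tables of the days and any sequencing run cannot be told apart in this comparison. The median log2 fold change of the 38 was 0.35, beside -0.05 for all genes tested, and 32 were above 0. That median was 0.21 without water replicate 4 of day 28. At an unadjusted p below 0.05, 16 of the 38 were higher, beside 15.2% of all genes, and 1 was lower, beside 12.5%. For 16 of the 38 all day 28 libraries lay above all day 14 libraries, and for 1, Acsl5, below, where the shares over all genes were 18.3% and 16.4%.

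The largest rise was that of Fabp3 (chr5:142651962-142658707, plus strand), at the water values given above, by 1.501 on the log2 scale (SE 0.188, edgeR adjusted p 0.00371). Of its exonic bases 10.7% overlap Zcchc17 on the other strand, which held 477 to 515 counts in water hearts of day 28, against 301 to 426 in water hearts of day 14. These are raw counts and do not show whether Zcchc17 differed between the days. The water libraries held 20754272 to 26403196 counts in all at day 28, against 18186669 to 18534816 at day 14. Etfb, the beta subunit of the electron transfer flavoprotein (chr1:93851908-93866072, plus strand), stood at 167, 203 and 302 CPM in water hearts of day 28, against 80.4, 90.8 and 98.1 CPM in water hearts of day 14. It rose by 1.30 (SE 0.204, edgeR adjusted p 0.0078). Pnpla2 (chr1:196552723-196557805, plus strand) rose by 1.23 (SE 0.208, adjusted p 0.0103), with every library of day 28 above those of day 14. These 3 genes passed in 14 of 14 alternatives.

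Acadm, Crat and Acot13 rose by about the same size and less firmly. Acadm had a log2 fold change of 0.71 (SE 0.167, edgeR adjusted p 0.0325), Crat of 0.71 (SE 0.175, 0.039) and Acot13, an acyl-CoA thioesterase of mitochondria, of 0.72 (SE 0.18, 0.0403). Acot13 stood at 59.2, 67.2 and 91.1 CPM in water hearts of day 28, against 38.5, 40.7 and 51.6 CPM in water hearts of day 14. In sorafenib hearts it stood at 51.4, 24.2 and 64.1 CPM at day 28 and at 33.1, 36.2 and 50.4 CPM at day 14. The calls of Acadm, Crat and Acot13 held in 7, 6 and 8 of 14 alternatives. They were lost without water replicate 2 or 3 of day 14 and without water replicate 3 of day 28, each of which left 3 calls. Acadm and Crat were also lost without water replicate 7 of day 14, and Crat and Acot13 without water replicate 4 of day 28. In these fits with a lost call the log2 fold changes were 0.66 to 0.82 for Acadm, 0.57 to 0.85 for Crat and 0.54 to 0.79 for Acot13. The 3 calls were also lost where each library's trend with gene length was removed, with adjusted p of 0.0631, 0.0527 and 0.11 and log2 fold changes of 0.60, 0.67 and 0.52. Fabp3, Etfb and Acot13 are among the shortest genes of the set, with 766, 841 and 743 exonic bases, and after that removal the log2 fold changes were 1.29 for Fabp3 and 1.08 for Etfb. DESeq2 called 13 of the 38, beside 17.5% of the genes to which it gave an adjusted p.

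**Figure D4:**
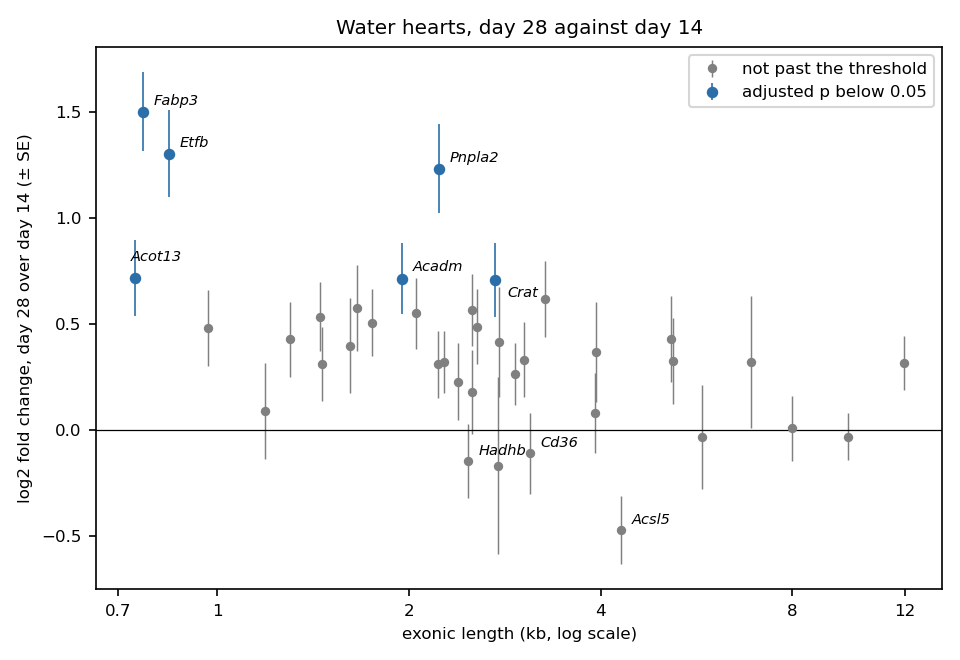
Log2 fold change of water hearts, day 28 over day 14, for the 38 genes (edgeR, bars of 1 SE) against exonic length in kb on a log scale. The 6 genes past the threshold are in blue and the rest in grey. Fabp3, Etfb and Acot13 lie at the short end, while Pnpla2, Acadm and Crat have lengths near the middle of the set.

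Of 8 ratios between partner genes, chosen after the data had been seen, 4 differed between the days after adjustment and 4 did not. The adjustment covers the 8 ratios and not their choice from these data, and the test pooled sorafenib and water libraries of a day. For these 4 the exact permutation p was 0.1 in water libraries alone, the smallest that 3 against 3 allows. In sorafenib libraries alone it was 0.1, or 0.2 for Pnpla2 to Lipe. Etfb and Pnpla2 had already been called between the days in the same water libraries, so their ratios are no separate evidence. The days have separate count tables, and day and table cannot be told apart in any of these ratios. Hadha and Hadhb encode the subunits of the trifunctional protein and lie head to head on chromosome 6 in mRatBN7.2, Hadha at chr6:26187969-26227605 on the plus strand and Hadhb at chr6:26153572-26187668 on the minus strand, with 300 bases between their outermost exons. Their RefSeq promoter windows in GRCr8, chr6:31907551-31907850 for Hadha and chr6:31907451-31907750 for Hadhb, share 200 bases, and are shown because the RNA ratio of this pair differed between the days. Capitals mark GGGCGG and CCAAT on either strand.
Hadha: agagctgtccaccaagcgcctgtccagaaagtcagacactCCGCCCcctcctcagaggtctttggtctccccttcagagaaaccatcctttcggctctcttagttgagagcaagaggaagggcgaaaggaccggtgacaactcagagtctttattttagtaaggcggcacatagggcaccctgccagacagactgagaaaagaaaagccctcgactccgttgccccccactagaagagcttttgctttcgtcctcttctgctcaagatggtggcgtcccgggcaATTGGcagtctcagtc
Hadhb: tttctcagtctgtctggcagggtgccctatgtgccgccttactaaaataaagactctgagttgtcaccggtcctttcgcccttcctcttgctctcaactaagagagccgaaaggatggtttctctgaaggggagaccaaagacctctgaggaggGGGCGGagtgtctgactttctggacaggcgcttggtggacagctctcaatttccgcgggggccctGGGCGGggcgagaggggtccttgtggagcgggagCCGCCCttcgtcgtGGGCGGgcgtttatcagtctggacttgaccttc

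The ratio of Hadhb to Hadha, per exonic length, was 1.26, 1.37 and 1.59 in sorafenib hearts of day 28 and 1.58, 1.43 and 1.49 in water hearts of day 28. It was 2.19, 2.48 and 2.25 in sorafenib hearts of day 14 and 2.63, 2.39 and 2.31 in water hearts of day 14. All 6 libraries of day 28 lay below all 6 of day 14, a mean log2 difference of -0.71 (exact permutation test, two-sided p 0.00216, the smallest that 6 against 6 allows). Adjusted over the 8 partner ratios tested, p was 0.0173. These genes have nearly equal exonic lengths, 2511 and 2476 bases. In water hearts Hadha had a log2 fold change of 0.56 (SE 0.169) over time and Hadhb of -0.15 (SE 0.176), with edgeR adjusted p of 0.0675 and 0.622. The ratios were chosen after the data had been seen, and a ratio shows only that both did not move alike.

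The ratio of Etfb to Etfa, the subunits of the flavoprotein, was 1.22, 1.14 and 1.11 in sorafenib hearts of day 28, against 0.693, 0.86 and 0.865 in water hearts of day 28. At day 14 it was 0.752, 0.387 and 0.627 in sorafenib hearts, against 0.351, 0.444 and 0.56 in water hearts. Day 28 was higher by 0.94 on the log2 scale (exact permutation p 0.00433, adjusted 0.0173), and at day 28 the sorafenib libraries lay above the water libraries, a difference that was not tested. Cpt1b to Cpt2, the outer and inner enzymes of the shuttle, was at 2.16 to 3.03 at day 28 and 1.59 to 2.3 at day 14 (log2 difference 0.46, exact permutation p 0.00649, adjusted 0.0173). Pnpla2 to Lipe was at 3.52 to 7.99 at day 28 and 2.32 to 3.96 at day 14 (0.76, exact permutation p 0.00866, adjusted 0.0173). For Pnpla2 to Lipe the log2 difference was 0.87 in water libraries, without overlap, and 0.64 in sorafenib libraries, with overlap. The other 4 ratios (Acacb to Acaca, Acacb to Mlycd, Dgat1 to Dgat2 and Pnpla2 to Pnpla3) had adjusted exact permutation p of 0.0934 to 0.998. For Pnpla2 to Pnpla3 the pooled value joins opposite changes, a log2 difference between days of -1.26 in sorafenib libraries, without overlap, and of 1.26 in water libraries, with overlap. Exonic lengths differ within most of these pairs, as between Etfb (841 bases) and Etfa (1301 bases).

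**Figure D5:**
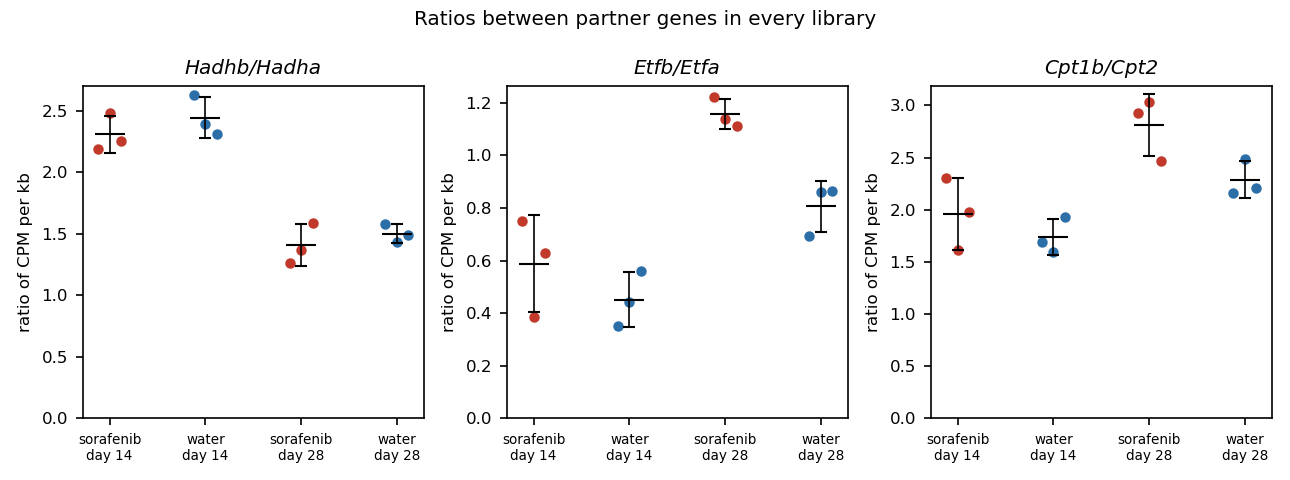
Ratios of CPM per kb between partner genes in every library, with sorafenib in red and water in blue, on axes that start at 0. Points are libraries and black lines the mean ± SD of 3. Hadhb to Hadha is lower in every library of day 28 than in any of day 14. Etfb to Etfa is mostly higher at day 28, with overlap between 0.693 in a water library of day 28 and 0.752 in a sorafenib library of day 14.

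Promoter windows were found for 29 of the 38 genes. None of them held AGGTCANAGGTCA, a direct repeat bound by PPAR and RXR factors, which 0.0538% of the 33469 windows in the table hold, nor TCAAGGTCA, an element of estrogen-related receptors (0.433%). The single element AGGTCA, which is contained in both, was found in 8 of 29 (27.6%, beside 16.2% of all windows), in Slc27a1, Acacb, Acadvl, Acad11, Hadhb, Echs1, Eci1 and Eci2. GGGCGG was found in 21 of 29 (72.4%, beside 33.1%), CCAAT in 11 (37.9%, beside 37.5%) and TATAAA in 4 (13.8%, beside 14.2%). CACGTG was in none (6.42% of all windows), and TCACNCCAC in Acot13 alone (1.12%). Both strands were searched with exact letters, and no match says only that these letters are not in these windows.

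Of 83 further genes of lipid metabolism, 80 were tested over both days, and 1 rose and 3 fell, beside 4.41% of all genes called. Gpihbp1, which carries lipoprotein lipase across the capillary wall, rose by 0.70 (SE 0.158, edgeR adjusted p 0.0303). It stood at 30.5, 39.1 and 46.3 CPM in sorafenib hearts of day 14, against 18.7, 18.3 and 13.1 CPM in water hearts, and at 33.3, 36.0 and 34.8 CPM in sorafenib hearts of day 28, against 40.2, 28.8 and 21.8 CPM in water hearts. Its groups overlapped at day 28 only. Fads2, the delta-6 desaturase of polyunsaturated fatty acids, fell by 0.61 (SE 0.116, adjusted p 0.0185). It stood at 25.6, 22.5 and 24.2 CPM in sorafenib hearts of day 14, against 27.8, 41.8 and 30.0 CPM in water hearts, and at 19.4, 18.4 and 20.1 CPM in sorafenib hearts of day 28, against 31.9, 32.5 and 35.0 CPM in water hearts, with no overlap at either day. Vldlr, a receptor of triglyceride-rich lipoproteins, fell by 0.59 (SE 0.158, adjusted p 0.0492). It stood at 124, 239 and 231 CPM in sorafenib hearts of day 14, against 258, 279.5 and 284 CPM in water hearts, and at 142, 136 and 179 CPM in sorafenib hearts of day 28, against 220.1, 236 and 300.3 CPM in water hearts. Agpat3, an acyltransferase of phospholipid synthesis, fell by 0.49 (SE 0.133, adjusted p 0.0495). It measured 48.0, 76.5 and 81.4 CPM in sorafenib hearts of day 14, against 84.6, 98.5 and 104 CPM in water hearts, and 87.9, 81.9 and 95.4 CPM in sorafenib hearts of day 28, against 108, 144 and 129 CPM in water hearts. Neither gene overlapped between the groups at either day. The calls of Fads2, Gpihbp1, Vldlr and Agpat3 held in 16, 11, 8 and 4 of 19 alternatives, with adjusted p of up to 0.216, 0.0828, 0.152 and 0.219. Endothelial markers had log2 fold changes below 0 in 6 of 7 genes over both days, 3 of them called, and their part in the values of Gpihbp1 and Cd36 was not tested.

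By list, sorafenib over both days called 0 of 19 further carnitine, mitochondrial and acyl-CoA genes, 0 of 11 peroxisomal genes and 0 of 14 transcriptional regulators. It called 1 of 8 tested genes of uptake and binding in each direction, 1 of 19 genes of storage and lipolysis, lower, and 1 of 9 tested genes of lipid synthesis, lower. Within day 14 and within day 28, edgeR called 0 of the 80, with 8 and 1 higher and 7 and 10 lower at an unadjusted p below 0.05. The shares over all genes were 7.09% and 7.04% higher and 6.93% and 7.83% lower. In water hearts over time 8 of the 80 rose and 0 fell, beside the 9.55% of all genes called. Fabp4, a fatty acid binding protein of fat cells and capillary endothelium, rose by 1.31 (SE 0.115, edgeR adjusted p 0.00229), to 331, 316 and 304 CPM at day 28, against 132, 131 and 119 CPM at day 14. Ucp3, a mitochondrial carrier of muscle, rose by 1.78 (SE 0.303, adjusted p 0.0113), to 55.8, 34.2 and 41.9 CPM at day 28, against 11.6, 8.19 and 18.4 CPM at day 14. Dbi, Acat1, Ppard, Plin4, Hsd17b10 and Plin5 rose by 0.63 to 0.95 with edgeR adjusted p of 0.00951 to 0.0466. Dbi, which encodes an acyl-CoA binding protein, stood at 50.6, 49.9 and 65.3 CPM in water hearts of day 28, against 31.1, 28.2 and 32.6 CPM at day 14. Acat1, a thiolase of ketone body metabolism, stood at 557, 635 and 782 CPM in water hearts of day 28, against 360.0, 378 and 423 CPM at day 14. Ppard, a nuclear receptor of fatty acids, stood at 74.2, 87.8 and 56.1 CPM in water hearts of day 28, against 38.2, 39.4 and 45.0 CPM at day 14. These 3 genes did not overlap between the days. The lipid droplet protein gene Plin4 stood at 436, 435 and 679.9 CPM in water hearts of day 28, against 262, 221 and 313 CPM at day 14. Its relative Plin5 stood at 60.3, 68.9 and 86.7 CPM in water hearts of day 28, against 46.8, 38.3 and 52.8 CPM at day 14. Hsd17b10, a mitochondrial dehydrogenase, stood at 108, 116 and 164 CPM in water hearts of day 28, against 72.9, 62.4 and 84.0 CPM at day 14, and all 3 genes were without overlap. Of these 8, Fabp4 and Ucp3 held in 14 of 14 alternatives, and the others in 7 to 13. In the same comparison 8 of 18 nuclear genes of oxidative phosphorylation passed, all higher, and 17 had log2 fold changes above 0 (median 0.695). Of 10 cardiomyocyte markers 2 passed, both higher, and 10 had log2 fold changes above 0 (median 0.359). The median of the 38 genes was 0.349. Of the fat cell markers 3 were tested, all 3 had log2 fold changes above 0 (median 1.29), and 1, Pck1, passed (2.70, edgeR adjusted p 0.011). The 7 fat cell markers summed to 6.83 to 13.3 CPM in water hearts of day 28, against 2.605 to 4.38 CPM in water hearts of day 14, and their part in the rises of Fabp4, Plin4 and Pnpla2 was not tested.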

How the data were processed

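Heart RNA without ribosomal RNA was sequenced as 12 libraries (4 groups of 3), per the labels' protocols. Deposited were raw read counts per gene. They come from featureCounts 2.0.1 run on read pairs without a strand setting, with RefSeq genes of mRatBN7.2, per the file headers. The submitters' processing notes name STAR for alignment. Since strand, which the kit marks, was ignored in counting, reads were not told apart by strand where genes overlap, as at 7 of the 38 genes. Each day has its own table, and in that of day 14 the labels do not cover 2 count columns, which were left out.

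Groups come from the labels. The members, lists and comparisons were chosen with earlier results of these data known. edgeR 4.0.16 in R 4.3.3 was run on all genes (filterByExpr, TMM, robust quasi-likelihood test, Benjamini-Hochberg adjusted p below 0.05), within each day, over all 12 libraries for the average and the difference of the days, and on the water libraries over time. SE was taken as the size of the log2 fold change over the square root of F. Values in every library are given for genes past the threshold, for those of smallest p in each comparison and for 13 genes set by name. Ratios of genes were tested with SciPy 1.17.1. As alternatives, DESeq2 1.42.0, RLE scaling, the filter dropped or set at 1 CPM in 3 libraries, a non-robust dispersion, removal of the trend with gene length (lowess span 0.3), 1 fit of all 12 libraries, blocking on the title's number, and omission of 1 library at a time were run. Total counts of 1036483 in 1 library limit the precision of its low genes. Code was tested on simulated counts. The smallest chi-square per gene between replicates was 8.075, so no pair agreed within sampling noise. Sequences are RefSeq's for GRCr8.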

Additional observations from a re-analysis of the deposited data

How the results depend on the processing

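Across the alternatives run, no gene past the threshold turned its direction. The count of called genes among the 38 depended on the setting. At day 14 it was 1 with DESeq2, 1 in the fit of all 12 libraries and 0 to 1 with a library left out, each time Pnpla3, where the edgeR fit gave 0. For the average of both days it was 5 with DESeq2 (Pnpla3, Cd36, Acsl6, Acacb and Pnpla2), beside 10.7% of the genes to which DESeq2 gave an adjusted p. It was 1 to 2 with a library left out, against 1. For water hearts over time it was 13 with DESeq2 (17.5% of the genes to which DESeq2 gave an adjusted p). It was 3 with the length trend removed (7.72% of all genes), 3 in the fit of all 12 libraries (8.51%) and 3 to 8 with a library left out, against 6. The count over all genes moved too. At day 14 it was 438 with DESeq2, 87 without a filter, 4 in the fit of all 12 libraries and 0 to 27 with a library left out, against 0. At day 28 it was 279, 82 and 53 under the same settings, 5 with the length trend removed and 0 to 3 with a library left out, against 0. For the average it was 1836 with DESeq2, against 801, and ranged from 35, without sorafenib replicate 2 of day 28, to 1562, without sorafenib replicate 4 of day 28. For the difference it was 9 with DESeq2 and 0 to 1 with a library left out, against 0, and for water over time 2772 with DESeq2 and 385 to 1703 with a library left out, against 1643. With a library left out, the median log2 fold change of the 38 ranged from 0.04 to 0.41 at day 14, from -0.33 to -0.09 at day 28, from 0.21 to 0.45 for water over time and from -0.14 to 0.04 for the average, where its sign changed without sorafenib replicate 5 of day 14 and without sorafenib replicate 3 of day 28. Whether the same number in the title pairs libraries cannot be told from 3 pairs. Deviations of same-numbered sorafenib and water libraries of day 28 correlated at 0.0944, 0.024 and 0.252, against -0.252 to 0.116 for different numbers. Sorafenib replicates 2 and 4 of day 28 correlated best with the water library of their own number, and replicate 3 did not. With the number of the title as a replicate block, 0 of the 38 were called at day 28 (108 genes in all) and 1 for the average (38 genes in all). For water over time that block gave 6 calls among the 38, beside 12.6% of all genes, among them Acsl5 and Lipe in place of Acadm and Crat. Without the block Acsl5 was lower at day 28 (log2 fold change -0.46 by DESeq2). Only numbers 2 and 3 occur in water hearts of both days, so the blocked comparison rests on these. Deviations of water libraries with the same number correlated at 0.0321 and -0.0295 between the days, against -0.138 to 0.162 for different numbers. No paired analysis was possible for day 14 because sorafenib and water share 1 number. Without the shallow library the Hadhb to Hadha difference was -0.70 (exact permutation p 0.00433, alternative chosen after seeing the data). Depth limits genes of few counts in that library, and 3 libraries a group limit every comparison within a day.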

Other observations

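Further markers of cell types held these values. Cidea, a lipid droplet protein known from brown fat, stood at 41.1 to 168 CPM in sorafenib hearts and 87.6 to 140 CPM in water hearts. Zic1, a transcription factor of brown fat, was at 0 counts in all 12 libraries. Fibroblast markers had log2 fold changes below 0 in 5 of 6 genes over both days, 1 of them past the edgeR threshold.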
